A study of Mus musculus with 36 samples.

Results

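The Platr genes, short for pluripotency-associated transcripts, are mouse genes catalogued under 1 root name because their RNA is abundant in embryonic stem cells. All genes of the count table whose symbol is Platr followed by a number, and that had at least 1 count in the 18 libraries used here, were taken. They number 29 of the 37417 genes with a count. A further symbol, Platr30, was listed at 0 in all 18 libraries and was not taken. The labels describe E14 mouse embryonic stem cells (ESC), a line kept in medium with leukemia inhibitory factor, and neural precursor cells (NPC) made from them. The 6 groups had 3 libraries each: wild type (WT), MLL3/4 dCD (dCD) and MLL2 dTAG (MLL2dTAG), each as ESC and as NPC. All 9 ESC libraries, WT included, carry the treatment label dTAG-13, and all 9 NPC libraries carry dTAG-13 with RA. No library without dTAG-13 was part of these comparisons. According to the labels, the compound was present at 2 µM from day 1 of differentiation until the harvest at day 4. The labels do not say how many clones stand behind a genotype or whether the 3 libraries of a group came from separate cultures, so p-values measure only the spread between these libraries, which may be technical.

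MLL3 and MLL4 (KMT2C and KMT2D) are the enzymes that place most enhancer-type methylation of H3K4, a lysine of histone H3. MLL2 (KMT2B) places H3K4 trimethylation at many developmental promoters. A dTAG fusion is a protein carrying a tag through which dTAG-13 recruits a ubiquitin ligase, so that the protein is destroyed while its RNA can persist. The loss of MLL2 can therefore not be checked here from its RNA. The dCD line carries MLL3 and MLL4 without catalytic activity, which RNA levels do not measure, so this alteration cannot be checked here either. Long noncoding RNAs are transcripts without a known protein product. Many are spliced, polyadenylated and far more cell-type restricted than messenger RNAs, and a number of the Platr RNAs are lost when stem cells leave the pluripotent state. Because the family was named for that loss, a lower level in NPC is not independent evidence about it.

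The libraries held 19430860 to 46041277 counts over genes. Levels are given as CPM, the count of a gene per 1000000 counts of its library, with library sizes scaled by the trimmed mean of M-values, and 3 counts, the limit that a count of 0 allows, correspond to 0.0662 to 0.16 CPM depending on the library. These limits and the intervals below cover counting error only. The summed level of 6 ESC markers (Pou5f1, Nanog, Zfp42, Esrrb, Tdgf1 and Dppa5a) was 3260 to 3810 CPM in the ESC libraries and 12.8 to 14.3 CPM in NPC WT. The summed level of 8 neural precursor markers was 104 to 134 CPM in ESC. In NPC it was 192 to 201 CPM in WT, 398 to 437 CPM in dCD and 260 to 267 CPM in MLL2dTAG. Mesoderm markers summed to 14.8 CPM by mean in ESC WT, 32.0 CPM in ESC dCD and 9.44 CPM in ESC MLL2dTAG. Their means in NPC were 2.45, 2.85 and 2.46 CPM. The 6 primitive endoderm markers, among them Gata4, Gata6 and Dab2, summed to 41.3 to 77.2 CPM in ESC, 408 to 424 CPM in NPC WT, 295 to 302 CPM in NPC dCD and 816 to 841 CPM in NPC MLL2dTAG, so the NPC libraries also held RNA typical of extraembryonic endoderm. Trophoblast markers summed to 55.9 CPM by mean in NPC WT, 24.3 CPM in NPC dCD and 24.7 CPM in NPC MLL2dTAG (7.21 CPM in ESC WT), and fibroblast markers to 621, 830 and 865 CPM (504 CPM in ESC WT). Single markers did not all follow these sums at an adjusted p under 0.05 in the test described below. Of the 6 fibroblast markers, 3 were higher and 3 lower in NPC WT than in ESC WT. The same split was seen in NPC MLL2dTAG against NPC WT, and all 6 were higher in NPC dCD. Of the 4 trophoblast markers, 1 was higher and 1 lower in NPC dCD than in NPC WT. In NPC MLL2dTAG 1 was higher and 2 were lower. Of the 8 neural precursor markers, 5 were higher and 0 lower in NPC dCD than in NPC WT. In NPC MLL2dTAG 5 of them were higher and 2 lower. Of the 4 mesoderm markers tested, 3 were higher and 1 lower in ESC dCD than in ESC WT. For ESC MLL2dTAG, 0 were higher and 3 lower. The NPC libraries thus differed between lines in summed marker levels, and the part of this in the Platr results was not tested.

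Promoter sequences were read for the members that had them in RefSeq, which are only some of the best-measured ones. RefSeq (build GRCm38.p6) gave a window from 250 bases before to 50 bases after the start for 12 of the 29 members, in 14 windows. Platr25, Platr11, Platr17 and Platr27 were among those without a window. 4 short motifs were searched on both strands in each 300-base window: ATGCAAA, a core recognised by POU factors such as Oct4; CATTGTT, a SOX factor motif; AAGGTCA, the core site of ESRRB and other nuclear receptors; and GGGTGTG, a KLF-type motif. No match overlapped a match of another motif in the members' windows. The POU motif stood in 1 of the 14 windows (Platr21) against 4.63% of the 32851 windows of all genes, the SOX motif in 2 (Platr14 and Platr8) against 3.78%, the ESRRB motif in 1 (Platr7) against 4.72%, and the KLF motif in 2 (Platr26 and Platr14) against 7.95%. The following 5 windows are printed in the direction of transcription, with motif letters in capitals (those of the opposite strand as their complement), because these RNAs carry the results below: Platr10 and Platr7 were almost lost in NPC, Platr14 and Platr21 were partly kept, and Platr20 was not lower in NPC WT.
Platr10, chr3:75655682-75655981, minus strand: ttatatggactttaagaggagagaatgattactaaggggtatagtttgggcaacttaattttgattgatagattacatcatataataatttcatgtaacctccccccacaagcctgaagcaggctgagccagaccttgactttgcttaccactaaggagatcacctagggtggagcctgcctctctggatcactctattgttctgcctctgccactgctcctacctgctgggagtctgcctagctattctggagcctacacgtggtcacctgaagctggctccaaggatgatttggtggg
Platr7, chr10:84553289-84553588, minus strand: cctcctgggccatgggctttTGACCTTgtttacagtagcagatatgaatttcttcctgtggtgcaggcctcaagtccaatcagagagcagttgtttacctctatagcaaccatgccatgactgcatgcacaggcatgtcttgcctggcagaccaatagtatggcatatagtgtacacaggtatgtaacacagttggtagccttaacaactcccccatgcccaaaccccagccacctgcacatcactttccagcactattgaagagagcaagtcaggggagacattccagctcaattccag
Platr14, chr2:104559209-104559508, plus strand: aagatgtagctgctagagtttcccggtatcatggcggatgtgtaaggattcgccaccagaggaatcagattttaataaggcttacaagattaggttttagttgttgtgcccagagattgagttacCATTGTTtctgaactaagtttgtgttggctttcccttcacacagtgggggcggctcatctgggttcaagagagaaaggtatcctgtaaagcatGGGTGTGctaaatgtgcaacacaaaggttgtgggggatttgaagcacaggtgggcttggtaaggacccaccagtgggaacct
Platr21, chrX:139357689-139357988, minus strand: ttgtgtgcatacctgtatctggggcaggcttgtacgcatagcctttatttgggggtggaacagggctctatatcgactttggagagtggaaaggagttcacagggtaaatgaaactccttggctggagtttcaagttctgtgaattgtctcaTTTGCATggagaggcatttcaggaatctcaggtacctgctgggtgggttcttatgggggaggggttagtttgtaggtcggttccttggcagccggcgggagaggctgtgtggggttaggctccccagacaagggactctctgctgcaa
Platr20, chr11:51220369-51220668, minus strand: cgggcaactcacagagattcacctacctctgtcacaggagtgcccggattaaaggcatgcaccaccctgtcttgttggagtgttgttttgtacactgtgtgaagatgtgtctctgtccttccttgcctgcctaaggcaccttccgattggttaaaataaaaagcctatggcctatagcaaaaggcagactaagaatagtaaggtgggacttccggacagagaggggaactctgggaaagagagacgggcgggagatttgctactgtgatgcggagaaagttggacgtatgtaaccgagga
None of the 4 motifs was found in the windows of Platr10 and Platr20, the most strongly lost of these RNAs and the one that did not fall in NPC WT. A match, or its absence, describes these letters only. The windows held 1 CpG (Platr10), 0 (Platr7), 4 (Platr14), 5 (Platr21) and 9 (Platr20), against a median of 7 over all windows and of 4 over the members' windows. The RefSeq start used for Platr14 lies 296 bases from the start of the gene in the GENCODE M21 annotation, and those of Platr10, Platr7, Platr21 and Platr20 are the same in both.

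The levels in ESC WT give the starting point. A mean of 1 CPM or more in at least 1 group was reached by 20 members, and the other 9 stayed below it everywhere. Platr10, a spliced RNA that has been described as chromatin-bound and linked to the pluripotency network, was the most abundant, at 138, 115 and 129 CPM in the 3 ESC WT libraries. Platr14 followed at 59.6, 56.2 and 59.2 CPM, and Platr25 at 20.5, 25.4 and 22.5 CPM. These 3 RNAs did not overlap in level and stood above all other members in ESC WT. Between 10 and 20 CPM by mean were Platr11 (16.5 ± 1.58, SD, n = 3), Platr4 (15.0 ± 1.19), Platr7 (13.9 ± 0.425) and Platr27 (10.1 ± 0.765). In this order Platr11 and Platr4, and Platr4 and Platr7, overlapped between libraries, and Platr27 lay wholly below Platr7. The remaining 13 of the 20 ran from Platr3 at 9.98 ± 0.0999 CPM down to Platr5 and Platr8 at 1.10 CPM each. Per kilobase of exon, the scale on which different genes can be compared, the order in ESC WT was Platr10 at 73.1, Platr11 at 42.4, Platr14 at 36.9 and Platr3 at 24.2 CPM per kb, while Platr25, with 6180 exon bases, came to 3.70 CPM per kb. Platr11 thus ranked above Platr14 once length was taken into account. Of the 29 members, 28 had their highest group mean in an ESC group and 1, Platr20, had it in NPC MLL2dTAG.

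**Figure D1:**
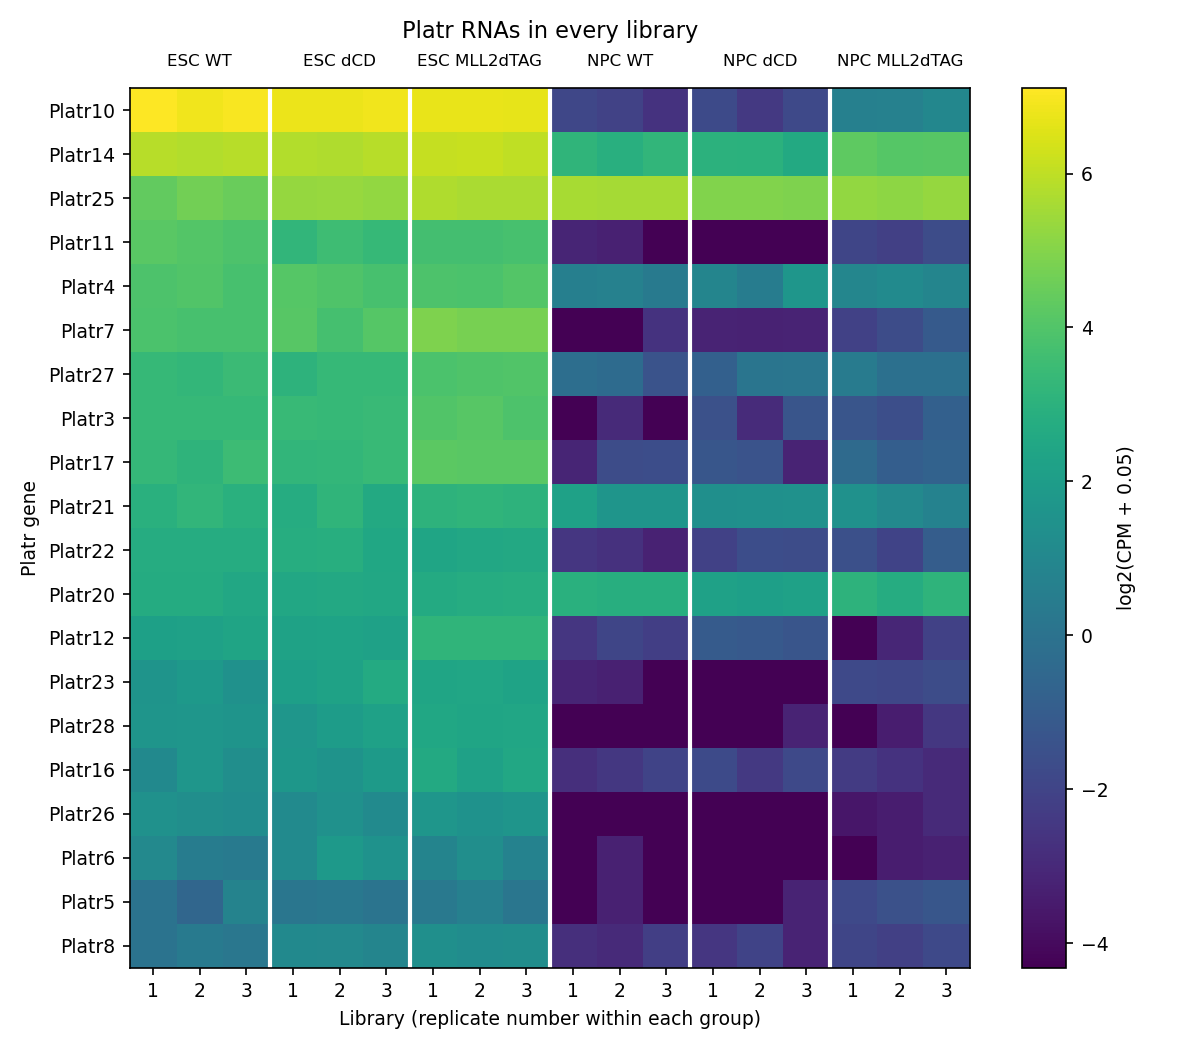
Heat map of the 20 Platr RNAs with a mean of at least 1 CPM in some group. Rows are genes ordered by ESC WT level, columns are the 18 libraries (3 replicates in each of 6 groups), and colour is log2(CPM + 0.05). The 9 NPC columns are dark in most rows, and Platr25, Platr20, Platr14, Platr21 and Platr4 keep a visible level there.

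The first comparison asked how the family changed when WT cells were differentiated. Most of it fell steeply. Of the 23 members that passed the filter on low counts, 21 were lower in NPC WT than in ESC WT and 1 was higher, at an adjusted p under 0.05 in edgeR's quasi-likelihood test with Benjamini-Hochberg adjustment over 20511 genes. In the same comparison 79.5% of all genes tested were called, 40.4% lower and 39.1% higher. The 3 NPC libraries lay wholly below the 3 ESC libraries in 21 members and wholly above them in 2, Platr25 and Platr20, against 40.1% and 39.6% of all genes. The median log2 fold change was -5.07 over the members and -0.04 over all genes tested. Most members passed the filter through their ESC level, so their count of falls is a description. Platr2, Platr9, Platr13, Platr15, Platr19 and Platr29 did not pass it. In bulk RNA, fewer cells that express a gene and less RNA in each cell cannot be told apart.

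The most abundant RNA was also among those lost most completely. Platr10 was at 0.222, 0.186 and 0.112 CPM in the 3 NPC WT libraries, against at least 115 CPM in each ESC WT library. Its log2 fold change was -9.50 (SE 0.12, edgeR adjusted p 4.5e-38), a 725-fold lower level, resting on 18 counts in NPC against 9874 in ESC. Platr11, whose nearest coding gene is the T-box gene Eomes, fell from 18.1, 16.4 and 15.0 CPM to 0.0633, 0.0533 and 0 CPM (log2 fold change -8.61, SE 0.25). Platr7 fell from 14.4, 13.6 and 13.8 CPM to 0, 0 and 0.112 CPM (log2 fold change -8.37, SE 0.28). All 3 were thus present in every ESC WT library and near the counting limit in every NPC WT library. Platr3 was at 9.90, 9.95 and 10.1 CPM in ESC WT, and its 3 counts in NPC WT all came from 1 library. Its level was 350-fold lower by the ratio of counts, with an exact 95% interval from 119 to 1700. Platr26 and Platr28 had 191 and 239 counts in ESC WT and 0 in NPC WT. They were thus at least 85.3-fold and 107-fold lower against a limit of 3 counts over the group. Of the longest transcript of Platr28, 18.2% matches other genes at 95% identity or more, so its level is uncertain.

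A middle set fell to a few percent of its ESC level. Platr17, whose symbol is a synonym of the coding gene Smim40 and which GENCODE M21 lists as protein-coding, fell from 9.64, 8.56 and 11.5 CPM to 0.0633, 0.266 and 0.279 CPM (log2 fold change -5.54, SE 0.24). Of the longest transcript of Platr17, 43.1% matches other genes at 95% identity or more, so its level is uncertain. Platr22 fell from 6.71, 6.63 and 6.66 CPM to 0.127, 0.107 and 0.0559 CPM (-6.07, SE 0.28). Platr23 fell from 2.98, 3.45 and 2.72 CPM to 0.0633, 0.0533 and 0 CPM (-6.19, SE 0.39). Platr22 and Platr23 lie on either side of Zfp281, a zinc-finger gene of the pluripotency network that is their shared nearest coding gene. Platr12 fell from 4.47, 4.64 and 5.00 CPM to 0.127, 0.213 and 0.168 CPM (-4.75, SE 0.27). Platr16 fell from 2.13, 3.12 and 2.48 CPM to 0.095, 0.133 and 0.196 CPM (-4.16, SE 0.31). Platr16 shares 43.6% of its exon bases, on the same strand, with the pseudogene Gm13230, so its level is uncertain. Platr6 went from 2.02, 1.33 and 1.26 CPM to 2 counts in all, a 77-fold lower level (exact 95% interval 20.8 to 644). Platr5 went from 0.958, 0.63 and 1.70 CPM to 2 counts, 58.3-fold lower (15.7 to 489).

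A smaller set kept between 6% and 45% of its ESC level. Platr27 fell from 9.90, 9.45 and 10.9 CPM to 0.823, 0.746 and 0.335 CPM, 6.28% of its ESC level. Platr4, which has been studied for a role in early lineage choice, fell from 15.0, 16.2 and 13.8 CPM to 1.49, 1.60 and 1.26 CPM, 9.66%. Platr8 fell from 0.958, 1.23 and 1.12 CPM to 0.095, 0.0799 and 0.168 CPM, 10.4%. None of these NPC values reached the lowest ESC value of its gene. Platr14 fell from at least 56.2 CPM to 8.89, 7.43 and 9.13 CPM, 14.5% (log2 fold change -2.78, SE 0.07). Platr21, a gene of 117513 bases that spans Trap1a on the opposite strand, fell from 7.56, 9.06 and 7.51 CPM to 4.68, 3.06 and 3.10 CPM, 45.0% (-1.17, SE 0.16). Among these 5 members Platr14 and Platr21 kept the largest shares.

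Platr25 and Platr20 did not share the loss. Platr25 rose from 20.5, 25.4 and 22.5 CPM in ESC WT to 48.8, 47.2 and 46.7 CPM in NPC WT (log2 fold change 1.05, SE 0.06, edgeR adjusted p 6.8e-18), and the groups did not overlap. It made up 66.5% to 68.8% of the summed Platr level in the NPC WT libraries, where Platr10 had made up 36.6% to 40.9% in ESC WT. GENCODE M21 lists Platr25 (chr13:62671784-62760709, minus strand) as protein-coding with 15 exons. Of its longest transcript, 18.3% matches other genes, Zfp934 and Zfp808 among them, at 95% identity or more. Reads from these zinc-finger relatives may therefore be mixed in there. Platr20 was at 6.50, 6.50 and 5.78 CPM in ESC WT and 7.69, 7.14 and 7.18 CPM in NPC WT. Its log2 fold change of 0.23 (SE 0.11, edgeR adjusted p 0.053) did not pass the threshold, but passed it under RLE size factors (0.25, adjusted p 0.039), without a filter (0.33, 0.023) and when only ESC WT and NPC WT were fitted (0.26, 0.040). Platr20 (chr11:51189833-51220418, minus strand) starts 55 bases from Gm12569.

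**Figure D2:**
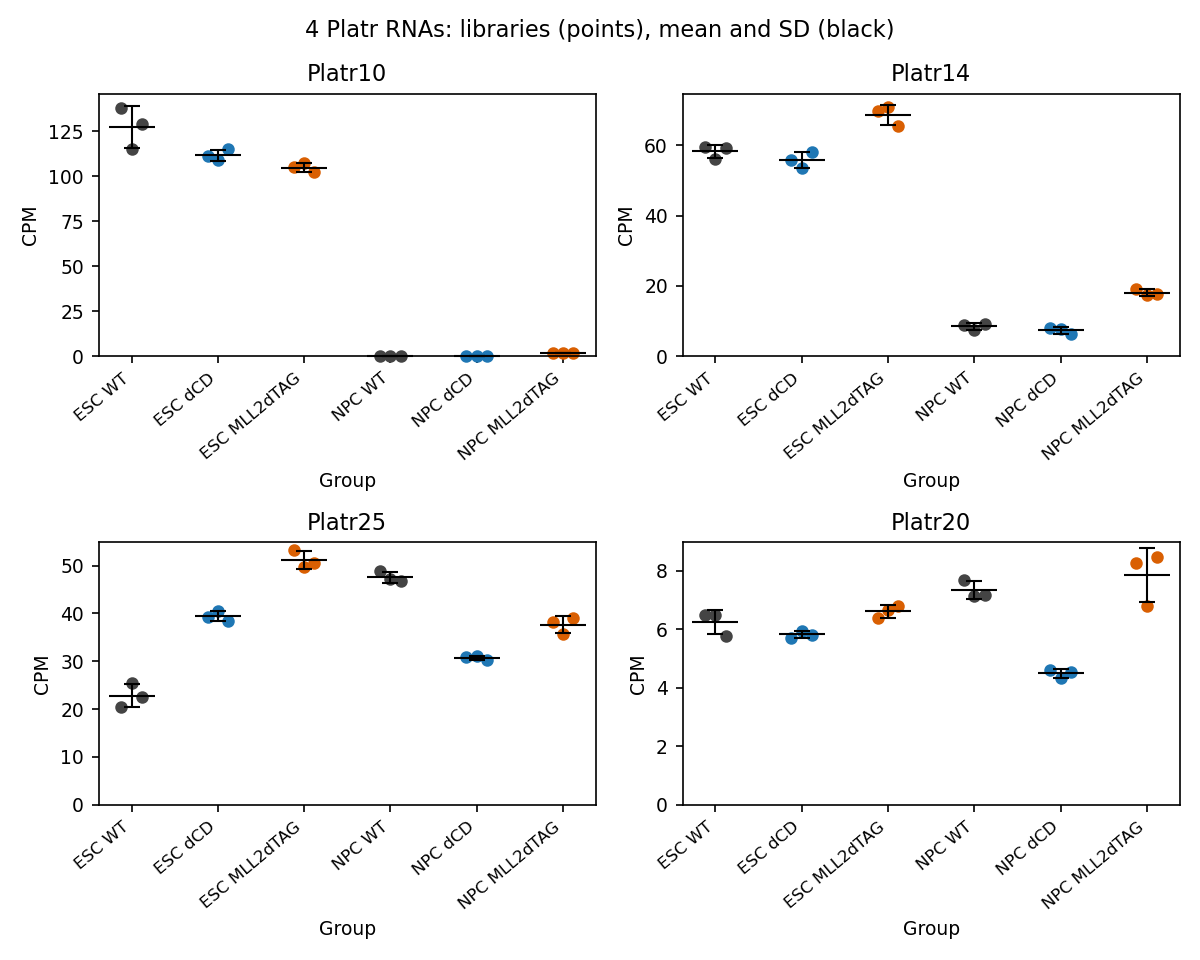
CPM of Platr10, Platr14, Platr25 and Platr20 by group on linear axes that start at 0. Points are libraries (3 in each group), and the black marks are the mean and SD. Platr10 and Platr14 are high in ESC and low in NPC in all 3 lines, while Platr25 in ESC WT lies below its 5 other groups and Platr20 in NPC dCD lies below its 5 other groups.

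Most tested members were lower in NPC in both other lines as well. As in WT, most passed the filter through their ESC level, so these counts of falls are a description too. In dCD, all 23 tested members were lower in NPC than in ESC, where 77.6% of all genes were called, 39.0% lower and 38.7% higher. The groups did not overlap in any of the 23, against 39.7% of all genes lower and 39.5% higher without overlap. The median log2 fold change was -5.01 over the members, or -4.01 with the 6 members at 0 counts in NPC dCD set to their limit. In MLL2dTAG, 20 members were lower, 1 was higher and 2 were not called, against 78.2% of all genes called, 38.3% lower and 39.9% higher, and the median was -4.14. In MLL2dTAG 20 members were lower without overlap and 0 higher, against 39.6% and 40.9% of all genes. Beside these, 19 of 20 pluripotency factors (a list that holds Pou5f1, Nanog, Sox2 and Esrrb) were lower in each of the 3 lines. In each line 1, Tbx3, was higher. Of 20 tested long noncoding RNAs with other symbols 9 or 10 were lower and 10 or 11 higher. The latter list holds Lncenc1, which RefSeq also names Platr18, so it is not wholly outside the family. As a share of the ESC level of the same line, the median over the 20 members was 1.83% in WT, 3.16% in dCD and 3.90% in MLL2dTAG, and over the pluripotency factors 1.49%, 1.38% and 4.88%. The direction of Platr25 differed by line: it fell in dCD from 39.2, 40.5 and 38.5 CPM to 30.9, 31.0 and 30.2 CPM (log2 fold change -0.36, SE 0.06), and in MLL2dTAG from 53.3, 49.7 and 50.5 CPM to 38.2, 35.7 and 39.1 CPM (-0.44, SE 0.05). Platr20 fell in dCD from 5.72, 5.96 and 5.82 CPM to 4.60, 4.33 and 4.55 CPM (-0.38, SE 0.12), which did not pass without a filter on low counts (-0.28, adjusted p 0.10). In MLL2dTAG its NPC values of 8.28, 6.80 and 8.48 CPM overlapped the ESC values of 6.38, 6.68 and 6.81 CPM. Its log2 fold change of 0.24 passed the threshold (edgeR adjusted p 0.037), and not without ESC MLL2dTAG replicate 1 (0.21, adjusted p 0.095) or replicate 2 (0.24, 0.064), or without NPC MLL2dTAG replicate 1 (0.20, 0.11) or replicate 3 (0.18, 0.16).

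**Figure D3:**
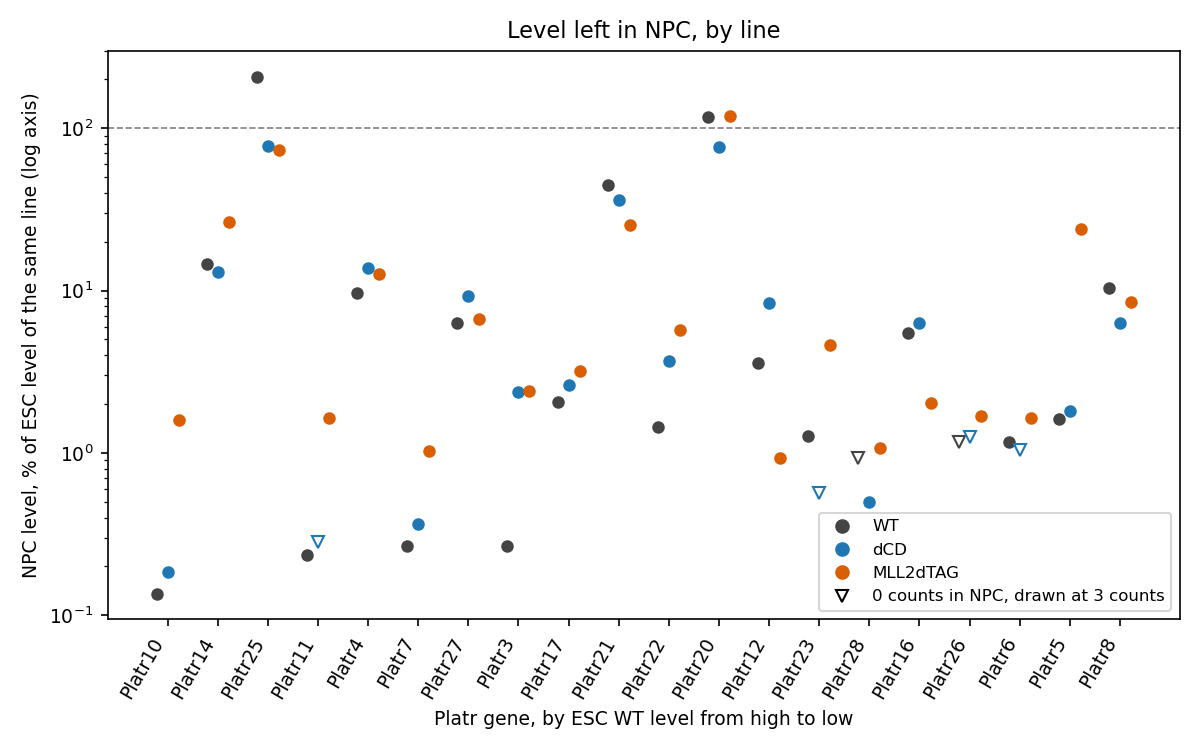
Level of each of the 20 Platr RNAs in NPC as a percentage of its ESC level in the same line (group means of 3 libraries each, log axis). Circles are WT, dCD and MLL2dTAG, open triangles stand at the limit of 3 counts where NPC had 0, and the dashed line marks 100%. Platr10 stands at 0.136%, 0.184% and 1.59%, and Platr25 and Platr20 in WT and Platr20 in MLL2dTAG lie above the line.

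The next comparisons asked how the family differed between lines within ESC. In ESC dCD it changed little. Of the 23 tested members, 4 were higher and 3 lower than in ESC WT (edgeR's quasi-likelihood test, Benjamini-Hochberg adjusted p under 0.05), where 48.3% of all genes were called, 25.7% higher and 22.6% lower. The libraries did not overlap in 5 members that were higher and 3 that were lower, against 27.1% and 24.8% of all genes. The median log2 fold change was -0.04 over the members and 0.02 over all genes. The summed level of the family was 322 to 330 CPM against 315 to 337 CPM in ESC WT. That sum includes a rise of Platr25, and without Platr25 it was 282 to 291 CPM against 290 to 317 CPM in ESC WT. Platr25 rose to the 39.2, 40.5 and 38.5 CPM given above, a log2 fold change of 0.77 (SE 0.06, adjusted p 1.1e-12). Platr23 rose from at most 3.45 CPM to 4.35, 4.80 and 6.23 CPM (0.75, SE 0.19). Platr8 rose from at most 1.23 CPM to 2.09, 2.03 and 1.79 CPM (0.82, SE 0.27). Platr6 rose from at most 2.02 CPM to 2.18, 3.44 and 2.80 CPM (0.90, SE 0.30, adjusted p 0.012), which did not pass when ESC WT replicate 3 (0.78, adjusted p 0.062) or ESC dCD replicate 2 (0.73, 0.083) was left out. In these 4 genes every dCD library lay above every WT library.

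The members that fell in ESC dCD included the most abundant one. Platr11 fell from at least 15.0 CPM to 9.26, 11.6 and 9.99 CPM (log2 fold change -0.67, SE 0.11, edgeR adjusted p 5.5e-06). Its neighbour Eomes, which encodes a transcription factor of mesendoderm, moved the other way, from 7.76 to 13.1 CPM by mean (0.77). Platr10 fell slightly, from at least 115 CPM to 111, 109 and 115 CPM (-0.19, SE 0.05, adjusted p 0.0018), and the groups met at 115 CPM as rounded without overlapping. Platr32, a low RNA inside an intron of Alpk3, had 9 counts in ESC dCD against 40 in ESC WT (-2.00, SE 0.71), and Alpk3 was lower as well (-0.69). For Platr14, with an SE of 0.06, the log2 fold change was -0.06 (adjusted p 0.45), and for Platr4 it was 0.03 (SE 0.12). Platr7 was called higher without ESC dCD replicate 2 (0.33, adjusted p 0.015) and not with all libraries (0.20).

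In ESC MLL2dTAG most of the members that changed went up. Of the 23 tested, 11 were higher and 2 lower than in ESC WT, where 56.9% of all genes were called, 28.7% higher and 28.2% lower. Without overlap 12 were higher and 3 lower, against 30.1% and 29.7% of all genes. The comparison shares its ESC WT libraries with the preceding one. The summed level was 381 to 391 CPM, above every ESC WT and every ESC dCD library. Platr25 rose to the 53.3, 49.7 and 50.5 CPM given above (log2 fold change 1.15, SE 0.06, edgeR adjusted p 3.4e-18). Platr7 rose from at most 14.4 CPM to 29.5, 27.0 and 27.3 CPM (1.00, SE 0.10), and the groups stood far apart. Its nearest coding gene Ckap4, which encodes an endoplasmic reticulum protein, rose from 80.7 to 192 CPM by mean (1.25). Platr3 rose from at most 10.1 CPM to 15.8, 17.7 and 15.1 CPM (0.69, SE 0.12). Platr17 rose from at most 11.5 CPM to 18.5, 17.9 and 18.3 CPM (0.88, SE 0.13), and Platr27 from at most 10.9 CPM to 14.5, 15.7 and 16.1 CPM (0.61, SE 0.13). Platr12 rose from at most 5.00 CPM to 8.98, 8.76 and 8.98 CPM (0.92, SE 0.15). None of these 6 genes overlapped between the groups.

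The other risers in ESC MLL2dTAG were of lower level or of smaller size. Platr16 rose from at most 3.12 CPM to 6.12, 4.63 and 5.80 CPM (log2 fold change 1.08, SE 0.19), and its overlapping pseudogene Gm13230 went from 33.5 to 80.4 CPM by mean. Platr8 rose from at most 1.23 CPM to 2.56, 2.33 and 2.38 CPM (1.12, SE 0.26). Platr28 rose from at most 3.12 CPM to 5.64, 5.28 and 5.33 CPM (0.83, SE 0.20). In each of these 3 genes all MLL2dTAG libraries lay above all WT libraries. Platr23 rose from at most 3.45 CPM to 5.28, 5.40 and 4.91 CPM (0.76, SE 0.18), and Platr14 from at most 59.6 CPM to 69.7, 70.8 and 65.5 CPM (0.24, SE 0.06). Platr10 fell from at least 115 CPM to 105, 107 and 102 CPM (-0.28, SE 0.05, edgeR adjusted p 6e-06), so the most abundant member and most of the risers moved in opposite directions. Platr11 fell from at least 15.0 CPM to 13, 12.9 and 13.7 CPM (-0.31, SE 0.11, adjusted p 0.013), and no longer passed when ESC WT replicate 1 was left out (-0.25, 0.080). Of the 20 pluripotency factors 12 were higher and 4 lower in the same comparison. Of the 20 other long noncoding RNAs, Lncenc1 (Platr18) among them, 5 were higher and 11 lower.

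**Figure D4:**
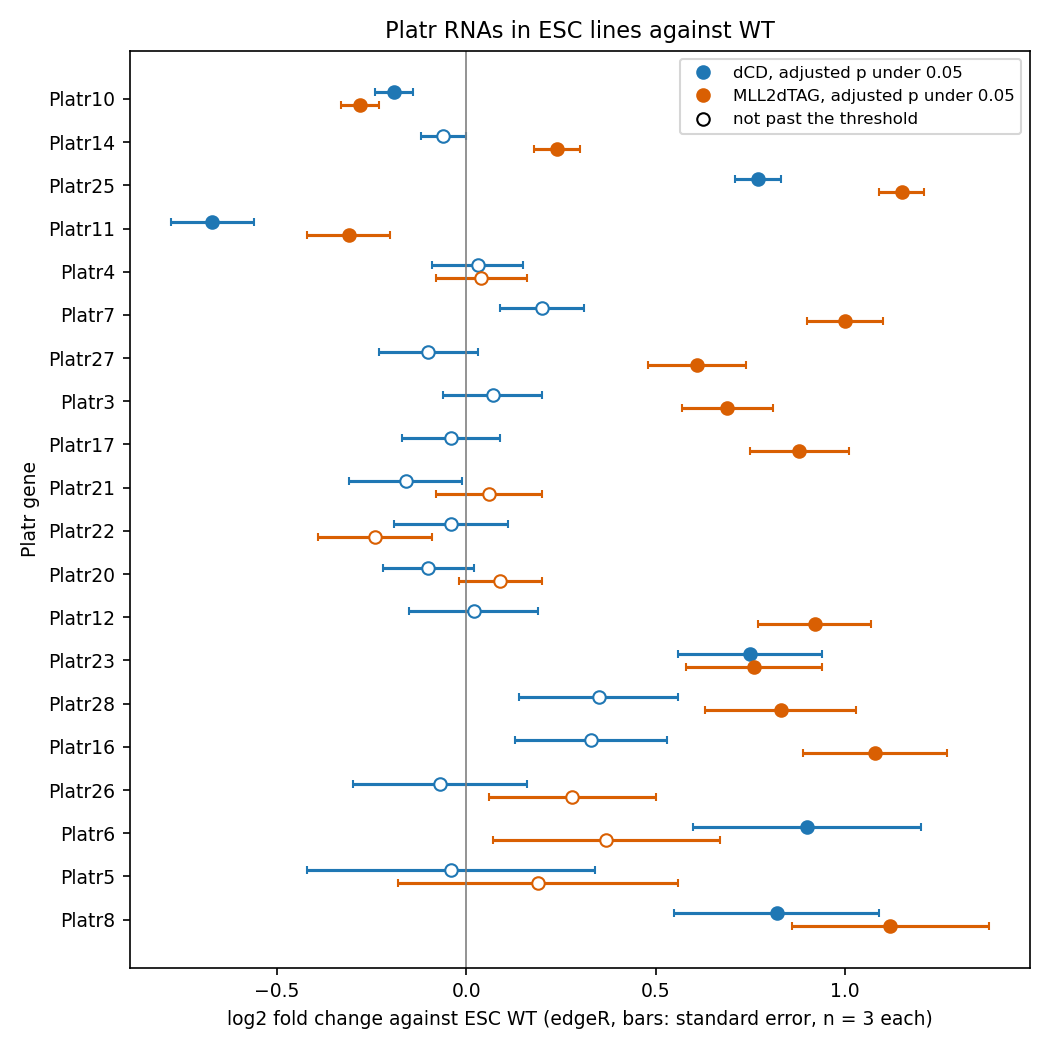
Log2 fold change of each of the 20 Platr RNAs in ESC dCD and ESC MLL2dTAG against ESC WT (edgeR, 3 libraries in each group, bars are the standard error). Filled points have an adjusted p under 0.05. Platr25, Platr23 and Platr8 are filled on the right and Platr10 and Platr11 on the left for both lines, which share the ESC WT libraries, while Platr7, Platr16, Platr12, Platr17, Platr28, Platr3, Platr27 and Platr14 are filled on the right for MLL2dTAG alone. Platr6 is filled on the right for dCD alone. Whether the lines differ from each other was not tested.

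In NPC the question was whether the members lost on differentiation were lost to the same level in each line. In NPC dCD, 4 of the 23 tested members were higher and 4 lower than in NPC WT, where 53.5% of all genes were called, 26.7% higher and 26.8% lower. Without overlap 3 were higher and 4 lower, against 29.6% and 30.5% of all genes. Many members were at a few counts here, so their changes are imprecise. The best-measured differences were falls. Platr25 fell to the 30.9, 31.0 and 30.2 CPM given above, from at least 46.7 CPM (log2 fold change -0.63, SE 0.06, edgeR adjusted p 5.6e-12). Platr20 fell from at least 7.14 CPM to 4.60, 4.33 and 4.55 CPM (-0.71, SE 0.11, adjusted p 1.2e-06). Platr21 fell from at least 3.06 CPM to 2.55, 2.59 and 2.70 CPM (-0.46, SE 0.18, adjusted p 0.028), a call lost without NPC WT replicate 1 (-0.24, 0.30) and without NPC dCD replicate 1 (-0.44, 0.067) or replicate 2 (-0.45, 0.065). Platr32 had 0 counts against 6, at least 1.96-fold lower (edgeR adjusted p 0.049). Its call was not rechecked with libraries left out.

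The members that were higher in NPC dCD were at low levels. Platr3 was at 0.307, 0.0828 and 0.352 CPM, 25 counts in all, against 3 counts in NPC WT. That is 8.50-fold higher by the ratio of counts (exact 95% interval 2.59 to 44.0; edgeR adjusted p 0.00085). Platr12 rose from at most 0.213 CPM to 0.429, 0.414 and 0.352 CPM (log2 fold change 1.20, SE 0.41, adjusted p 0.013), and its call was lost without NPC WT replicate 1 (1.05, 0.052). Platr22 rose from at most 0.127 CPM to 0.184, 0.276 and 0.264 CPM (1.31, SE 0.51, adjusted p 0.028), with calls lost without NPC WT replicate 2 or 3 or NPC dCD replicate 2 or 3 (1.04 to 1.41). Platr4 was at 1.81, 1.35 and 3.14 CPM against 1.49, 1.60 and 1.26 CPM, so the groups overlapped, and its log2 fold change of 0.53 (adjusted p 0.035) dropped to 0.12 without NPC dCD replicate 3. It was also lost without NPC WT replicate 1 (0.54, adjusted p 0.060) or replicate 3 (0.43, 0.13). Platr10 was low in both, with 21 counts against 18 (0.25, SE 0.47).

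Some members of NPC dCD crossed the threshold only when a library was left out or, for Platr14, also under another scaling. Platr14 had a log2 fold change of -0.21 (edgeR adjusted p 0.059), and it was called lower without NPC WT replicate 2 (-0.30, adjusted p 0.011), without NPC dCD replicate 1 (-0.28, 0.022) and under upper quartile scaling (-0.21, 0.049). Platr27 was called higher without NPC dCD replicate 1 (0.74, adjusted p 0.030). Platr11 and Platr23, with 0 counts against 4 each, were called lower without NPC WT replicate 3 (adjusted p 0.023 for each). The levels of these 4 RNAs in NPC dCD are therefore given as values, not as changes.

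In NPC MLL2dTAG most of the members that changed were higher than in NPC WT. Of the 23 tested, 12 were higher and 2 lower than in NPC WT, where 61.7% of all genes were called, 33.3% higher and 28.4% lower. Without overlap 13 were higher and 2 lower, against 36.4% and 31.5% of all genes. The median log2 fold change was 1.09 over the members, or 0.84 with Platr26 and Platr28, at 0 counts in NPC WT, set to their limits, and 0.03 over all genes. Of the 20 pluripotency factors 19 were higher, with a median of 2.34, Pou5f1 going from 1.01 to 26.9 CPM and Nanog from 1.71 to 14.4 CPM by mean. The 6 ESC markers summed to 132 to 137 CPM in NPC MLL2dTAG, 17.1 to 18 CPM in NPC dCD and 12.8 to 14.3 CPM in NPC WT.

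Among the members with more than 3 counts in both groups, Platr10 had the largest fold difference. It was at 1.51, 1.59 and 1.88 CPM in NPC MLL2dTAG and at most 0.222 CPM in NPC WT, a log2 fold change of 3.25 (SE 0.28, edgeR adjusted p 1.3e-12). That is 9.50-fold higher than in NPC WT, and 1.59% of its level in ESC MLL2dTAG. Platr14 rose from at most 9.13 CPM to 19.2, 17.3 and 17.7 CPM (1.09, SE 0.08, adjusted p 2.2e-14), which is 26.3% of its ESC level. Platr5, an RNA of 3 exons near the small GTPase gene Arl4c, had 36 counts, spread as 0.237, 0.309 and 0.365 CPM, against 2 counts in NPC WT. It was 16.1-fold higher by the ratio of counts (exact 95% interval 4.15 to 138) and kept 24.0% of its ESC level, while Arl4c was lower (-0.58). Platr3 had 45 counts against 3, 13.4-fold higher (4.31 to 67.5). Platr7 rose from 4 counts to 34, at 0.178, 0.265 and 0.417 CPM (2.80, SE 0.67), and Platr11 from 4 counts to 25, at 0.208, 0.177 and 0.261 CPM (2.37, SE 0.64). In all 6 of these genes every NPC MLL2dTAG library lay above every NPC WT library. The NPC WT counts of Platr3, Platr5 and Platr7 each came from 1 library, replicate 2 for Platr3 and Platr5 and replicate 3 for Platr7, and without it NPC WT was at 0 and the calls held.

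Platr17, Platr22 and Platr23 followed the same direction. Platr17 rose from at most 0.279 CPM to 0.712, 0.486 and 0.548 CPM (log2 fold change 1.43, SE 0.40), Platr22 from at most 0.127 CPM to 0.297, 0.199 and 0.470 CPM (1.69, SE 0.47), and Platr23 from at most 0.0633 CPM to 0.237, 0.221 and 0.261 CPM (2.53, SE 0.63). Platr27, Platr26 and Platr28 were called higher on weaker grounds. Platr27 was at 1.31, 0.883 and 0.887 CPM against at most 0.823 CPM (0.68, SE 0.27, edgeR adjusted p 0.030), and the call was lost without NPC WT replicate 3 (0.37, 0.26) or NPC MLL2dTAG replicate 1 (0.49, 0.16). Platr26 had 6 counts and Platr28 had 7 against 0, at least 1.79-fold and 2.09-fold higher. The call of Platr28 was lost without NPC WT replicate 2 (adjusted p 0.051) or NPC MLL2dTAG replicate 3 (0.14). With all counts halved, Platr26 and Platr28 (adjusted p 0.071 for each) and Platr27 (0.059) all lost their calls.

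Platr21 and Platr25 ran the other way in NPC MLL2dTAG. Platr21 fell from at least 3.06 CPM to 2.73, 2.01 and 1.64 CPM (log2 fold change -0.77, SE 0.18, edgeR adjusted p 0.00032), and Platr25 fell from at least 46.7 CPM to 38.2, 35.7 and 39.1 CPM (-0.34, SE 0.05, adjusted p 1.4e-06). Both were lower in every library. Platr12 had 10 counts against 18 (-0.98, SE 0.56, adjusted p 0.13), and without NPC MLL2dTAG replicate 3 it was called lower (-2.07, adjusted p 0.011). Platr20 did not pass the threshold (0.09, SE 0.10), nor did Platr4 (0.43, SE 0.21, adjusted p 0.078).

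**Figure D5:**
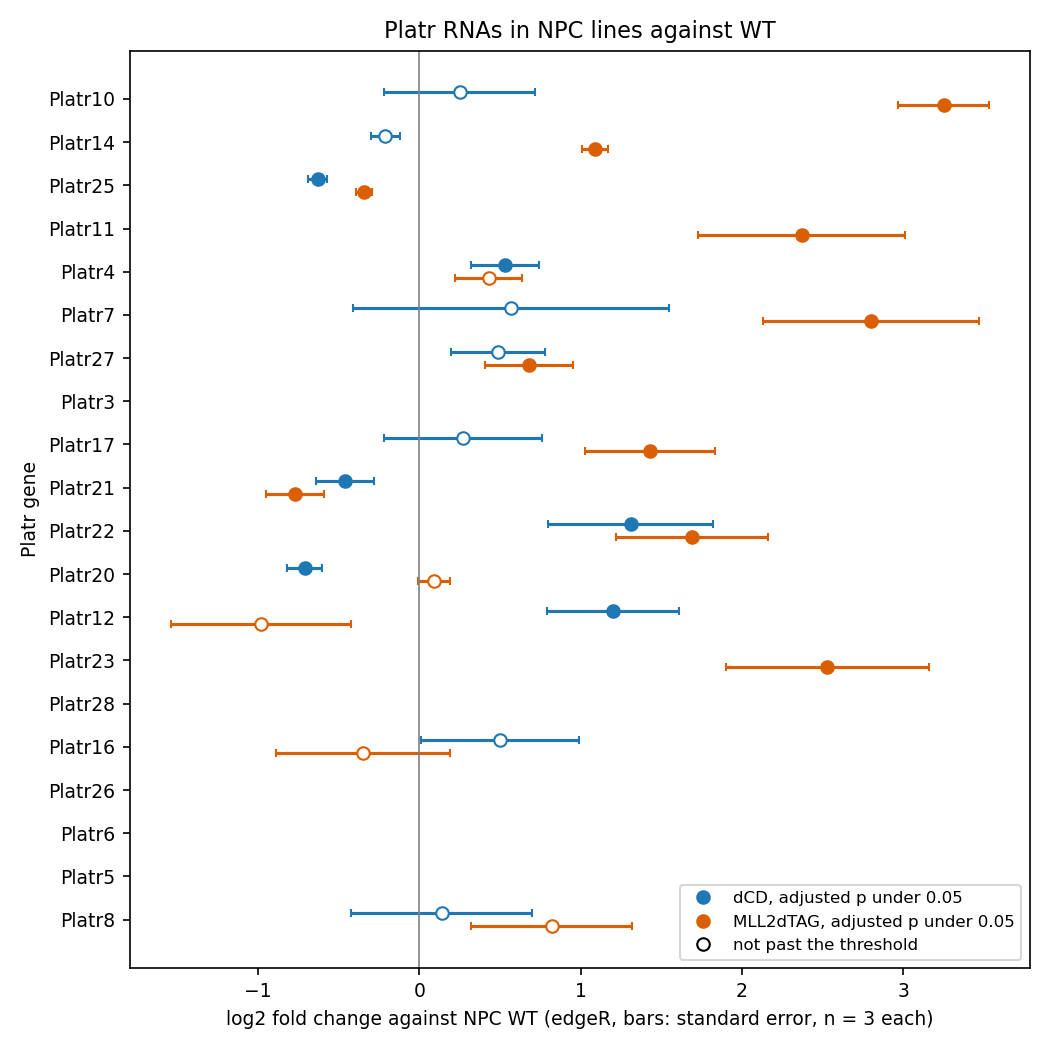
Log2 fold change of the Platr RNAs in NPC dCD and NPC MLL2dTAG against NPC WT (edgeR, 3 libraries in each group, bars are the standard error). Points are drawn only where both groups had more than 3 counts, so Platr3, Platr5, Platr6, Platr26 and Platr28 have none, and Platr11 and Platr23 have none for dCD. Filled points have an adjusted p under 0.05, and the largest is Platr10 in MLL2dTAG at 3.25.

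Whether a line changed a member differently at the 2 stages was tested with an interaction term, which is the log2 fold change against WT in NPC minus that in ESC. For dCD, 3 of the 23 tested members had a positive and 3 a negative term past the threshold, where 42.9% of all genes were called, 20% positive and 22.9% negative. For MLL2dTAG, 9 were positive and 4 negative, against 49.0% of all genes, 26.4% positive and 22.6% negative. The excess of positive terms was not particular to the family. Of the 20 pluripotency factors 17 were positive and 2 negative. Of the 20 other long noncoding RNAs, Lncenc1 (Platr18) among them, 13 were positive and 3 negative. Platr25 had the most precise terms, -1.40 (SE 0.08, edgeR adjusted p 4.9e-16) for dCD and -1.49 (SE 0.08, adjusted p 2.1e-17) for MLL2dTAG, since it was above WT in ESC and below WT in NPC in both lines. Both terms use the same WT libraries. Platr10 had a term of 3.53 for MLL2dTAG (SE 0.28, adjusted p 4.2e-13), being slightly below WT in ESC and above it in NPC. Platr11 had 2.68 (SE 0.64), which rests on 4 counts in NPC WT. Platr14 had 0.85 (SE 0.10, adjusted p 5e-09). Platr20 had -0.61 (SE 0.16, adjusted p 0.0023) for dCD and 0.01 (SE 0.15) for MLL2dTAG.

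The 9 members that stayed under 1 CPM were Platr1, Platr2, Platr9, Platr13, Platr15, Platr19, Platr29, Platr31 and Platr32. The highest group mean among them was 0.894 CPM, for Platr1 in ESC MLL2dTAG. Platr1 had 11 to 35 counts in each ESC library and 0 to 4 in each NPC library. Platr9, on the strand opposite the hormone subunit gene Cga, had 1 to 14 counts in ESC libraries and 0 in all 9 NPC libraries. Platr19 likewise had 0 in NPC and at most 4 counts in an ESC library. These RNAs too were thus found mainly in ESC. Platr31 overlaps Tigar, which encodes a regulator of sugar metabolism, on the opposite strand over 8.32% of its exon bases. It had 22 counts in ESC WT and 4 in NPC WT (log2 fold change -2.80, SE 0.84). Whether the counting used strand is not given in the sources used here, so reads of Platr31 and Tigar, or of Platr9 and Cga, may be mixed. All exon bases of Platr2 match 2410141K09Rik and Gm26639, so its 44 counts cannot be assigned.

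What the members had next to them on the chromosome was compared by nearest coding gene in GENCODE M21. Of the 22 members called in NPC WT against ESC WT, 17 had a neighbour called in the same direction. For 4 it was called in the opposite direction, and for 1 it was not called. That comparison called 40.4% of all genes lower and 39.1% higher. Of the 27 neighbours tested, whatever their member did, 17 were lower and 8 higher. A call was counted whatever its size. Eomes, beside Platr11, fell by 5.45 on the log2 scale, Sgk1, a kinase gene beside Platr6, fell by 3.57, and Rbmxl2, beside Platr28, fell by 6.33. Elsewhere the neighbour moved little: Serpini1, 3951 bases from Platr10, changed by -0.61 while Platr10 changed by -9.50, and Plcb4, beside Platr3, changed by -0.51. Ckap4 beside Platr7 and Arl4c beside Platr5 rose (0.90 and 1.64) where these RNAs fell. In dCD and MLL2dTAG the counts of same, opposite and not called were 15, 5 and 3 of 23, and 12, 5 and 4 of 21. Of all genes, 39.0% and 38.3% were lower and 38.7% and 39.9% higher. Of the 27 neighbours tested, 17 and 15 were lower and 7 in each line higher. Between lines, the neighbour was called the same way as the member for 4 of 7 in ESC dCD, 8 of 13 in ESC MLL2dTAG, 6 of 8 in NPC dCD and 10 of 14 in NPC MLL2dTAG. Beside these, 25.7%, 28.7%, 26.7% and 33.3% of all genes were higher and 22.6%, 28.2%, 26.8% and 28.4% lower. The neighbours were mostly higher whatever their member did. Of the 27 neighbours tested, 18, 16, 14 and 18 were higher and 2, 4, 6 and 4 lower. Matching calls are therefore a description. Zfp281 counts as the neighbour of both Platr22 and Platr23.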

How the data were processed

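RNA was sequenced from polyadenylated, strand-preserving libraries, per the labels' protocols. The authors deposited a table of raw read counts per gene, made with HTSeq per the submitters' processing notes. The strand setting and genome build of this set are not given in the sources used here. Of the table's columns, 6 matched no single sample and were left out, and 18 of the series' 36 samples were not used here.

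Counts were fitted over all 18 libraries and 6 groups with edgeR 4.0.16 (quasi-likelihood F test, two-sided, trimmed mean of M-values scaling, the tool's own filter on low counts) in R 4.3.3, with Benjamini-Hochberg adjustment over the 20511 genes that passed and a threshold of 0.05. The script was tested on simulated data. The common biological coefficient of variation was 4.01% with 12 residual degrees of freedom. Of counts from 1 to 10, 60.8% to 66.5% were even numbers, so counting intervals may be too narrow, and all counts were also halved as an alternative. Members with a group at 0 are given as a limit against 3 counts over the group, and those with 1 to 3 counts as a ratio with an exact 95% interval. Other alternatives were RLE and upper quartile scaling, no filter, DESeq2 1.42.0, only the groups compared, each library left out, and a replicate block.

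Positions, exon lengths and nearest coding genes came from GENCODE M21 (GRCm38), matched by symbol for all 29 members. Shared sequence was searched with BLAST+ 2.17.0 at 95% identity over at least 100 bases. Members with a mean of 1 CPM in some group were described singly by rule. The members and gene lists were chosen with earlier results of these data known.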

Additional observations from a re-analysis of the deposited data

Results flagged for a closer look

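In 19 cases a Platr RNA differed from WT by a different amount in NPC and in ESC, by the interaction term of edgeR's quasi-likelihood test (log2 fold change in NPC minus that in ESC, Benjamini-Hochberg adjusted p under 0.05). Both lines are compared with the same WT libraries. For dCD the term was 2.86 for Platr3, 1.18 for Platr12 and 1.35 for Platr22, which were nearer to WT in ESC than in NPC. It was -0.61 for Platr20, -1.40 for Platr25 and -4.18 for Platr23. The value of Platr23 rests on 0 counts in NPC dCD and depends on the prior count of the fit.

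For MLL2dTAG, Platr10 had a term of 3.53, Platr5 of 3.56, Platr3 of 2.88 and Platr11 of 2.68. Platr22 had 1.93, Platr7 had 1.80, Platr23 had 1.77 and Platr14 had 0.85. The term of Platr26 was 3.53, with 0 counts in NPC WT, so that it too depends on the prior count. The 4 negative terms were -1.89 for Platr12, -1.43 for Platr16, -0.83 for Platr21 and -1.49 for Platr25. Platr12 and Platr16 stood above WT in ESC MLL2dTAG and were not called against WT in NPC, whereas Platr25 stood above WT in ESC and below it in NPC.

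Platr3 and Platr5 had 3 and 2 counts in NPC WT, all in replicate 2, and Platr7 had 4, all in replicate 3. Platr11 and Platr23 had 4 each, in replicates 1 and 2. The terms of these RNAs thus also rest on near-zero counts. Without replicate 2 the terms of Platr3 became 5.90 (dCD) and 5.92 (MLL2dTAG) and that of Platr5 became 6.10, and without replicate 3 that of Platr7 became 5.22. These values stand against a group at 0 and are no bound. Without NPC MLL2dTAG replicate 3 the MLL2dTAG term of Platr12 became -2.98.

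Some of these terms lost their call without 1 library. For dCD this held for Platr12 (1.03 to 1.16 where lost), Platr22 (1.08 to 1.44) and Platr23 (-4.18 to -3.75). For MLL2dTAG it held for Platr7 (1.21 to 1.46), Platr16 (-1.48 to -1.13), Platr23 (1.21 to 1.70) and Platr26 (3.12 to 3.53).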

How the results depend on the processing

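Of 118 calls over the 20 Platr RNAs described singly and 9 comparisons, 92 were kept under every alternative, 7 were kept wherever tested but could not be tested with only the groups compared, and 19 were lost under at least 1 alternative. No called value changed sign. In NPC WT against ESC WT, 2 members were called higher under RLE size factors, without a filter and with only the groups compared. In MLL2dTAG, 0 members were called higher in NPC than in ESC under upper quartile scaling, without a filter or by DESeq2, against 1 with edgeR, which is Platr20. Without a filter, 1 member was lower in ESC MLL2dTAG, and 1 had a positive dCD interaction. Halving the counts left 2 members higher in NPC dCD, 1 with a positive dCD interaction and 2 with a negative MLL2dTAG interaction. With only the groups compared, 1 member was higher in NPC dCD and 3 in NPC MLL2dTAG, where 7 and 8 members could be tested. DESeq2 called 2 members lower in NPC dCD. Leaving out 1 library at a time gave 0 to 1 member higher in NPC MLL2dTAG against ESC MLL2dTAG, 1 to 2 lower in ESC MLL2dTAG, 2 to 5 higher and 2 to 6 lower in NPC dCD, 1 to 3 with a positive dCD interaction, and, for the MLL2dTAG interaction, 6 to 10 positive. Replicate numbers did not pair the samples (correlations of deviations -0.019 to 0.032 among same-numbered libraries), and the replicate block changed 1 call, the MLL2dTAG interaction of Platr16 (-1.42, adjusted p 0.05). Upper quartile scaling moved the median of all genes in NPC against ESC from -0.04 to -0.12 in WT, from -0.02 to -0.11 in dCD and from 0.00 to -0.11 in MLL2dTAG. Depth limits most NPC values of members under 0.2 CPM.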

Other observations

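RefSeq lists 2 further Platr names as synonyms of genes that the count table holds under other symbols, so they were not among the members. Lncenc1 was counted above in the list of long noncoding RNAs with other symbols. Lncenc1 (Platr18), a long noncoding RNA named for its abundance in ESC, had mean ESC levels of 269 CPM (WT), 318 CPM (dCD) and 448 CPM (MLL2dTAG), above Platr10 in each line also per kilobase of exon. Its mean NPC levels were 6.80 CPM (WT), 20.1 CPM (dCD) and 91.5 CPM (MLL2dTAG), each over 3 libraries. Against NPC WT its log2 fold change was 1.57 (SE 0.06) in NPC dCD and 3.75 (SE 0.05, edgeR adjusted p 6.5e-35) in NPC MLL2dTAG, with no overlap between libraries. Kis2 (Platr24) had 26 ESC counts in WT, 14 in dCD and 18 in MLL2dTAG, and 0 in all NPC groups.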
